A study of Mus musculus with 29 samples.

Results

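The response of liver and of hippocampus to a switch from high-fat diet to chow was compared gene by gene in diet-induced obese mice. Of 24346 genes in the deposited table, 9904 had a mean of at least 1 FPKM (a fragment level corrected for library size and gene length) in each of the 2 tissues, and these are the genes compared. For each gene the chow minus high-fat change on the log2(FPKM + 1) scale was taken in liver and in hippocampus, and the liver change minus the hippocampal change was the difference between the tissues. The filter took the mean over both diets, so a low gene could enter through the diet on which it was high. Of the genes called below, 15 had a mean under 1 FPKM in one of the 4 groups, among them H2-Aa, H2-Ab1, Lum, Gpr182, Tuba8, Wnk4, Sema5b, Lrtm1 and Mmd2, and their calls rest in part on that entry. Genes with the same sign of change in both tissues are described after it.

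All mice were male C57BL/6J made obese by 10 weeks of high-fat feeding, and every group, controls included, shares that history. For the next 4 weeks they were given either the high-fat diet as before (HFD) or control chow (CC), both with free access to food. The comparison rests on 16 libraries, 4 per group, from liver (L) and hippocampus (H). 13 further libraries from mice that fasted every other day on the same diets (2 HFD and 4 CC livers, 4 HFD and 3 CC hippocampi) served for a repeat of the comparison. The libraries were strand-specific and made from poly-A RNA of whole tissue pieces, read as pairs of 125 nt, so every cell type of a piece contributes. In such samples fewer cells of a type and less RNA per cell cannot be told apart.

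The liver makes, stores and burns fat and cholesterol, breaks down amino acids, and turns their nitrogen into urea. Many of its enzyme genes follow the fat, protein and sterol content of the diet, through regulators such as PPAR alpha for fat burning and SREBP-2 for cholesterol. The hippocampus, which serves memory, lies behind the blood-brain barrier. It makes its own cholesterol and draws mainly on glucose.

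The libraries matched their tissue labels. Summed over 13 neuronal markers, FPKM was 3345 to 3990 in the 8 hippocampal libraries and 38.4 to 57.7 in the 8 livers. Summed over 13 hepatocyte markers it was 40529 to 93355 in liver and 77.0 to 1813 in hippocampus, where transthyretin (Ttr), which the choroid plexus also makes, gave most of the higher sums. Albumin (Alb) was listed at 0 in 4 livers, although it was 34135 to 43965 in the other 4. An exact 0 in these data thus need not mean absence. The zeros were in HFD-L library 3 and CC-L libraries 0, 2 and 3, so mostly on chow. Whether they bear on the scaling of the liver values was not tested. None of the genes that passed the test below had an exact 0. Estimated from the spacing of low values, depth was 8900000 to 14300000 fragments in the livers and 10750000 to 34100000 in the hippocampi. That spacing was loose: 54.6% to 67.2% of low values lay within 0.2 of a whole fragment, against 40% by chance. Estimated depth went with diet in liver, where every CC library was deeper than every HFD library. The deepest hippocampi were CC-H libraries 3 and 0, while CC-H library 1 lay within the HFD range and library 2 below it. Whether depth bears on the diet changes was not tested. Pearson's r between libraries of a group, across genes, was 0.898 to 0.962. A library is named below by its group and the index, from 0, in its column heading.

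Chow moved liver and hippocampus differently at 197 of the 9904 genes (1.99%), tested with limma at a Benjamini-Hochberg adjusted p below 0.05. In all, 1519 genes had an unadjusted p below 0.05. At 158 genes (1.6% of those tested) the liver change was the more negative, and at 39 (0.394%) it was the more positive. The split depended on the scaling: it was 102 to 63 after median-of-ratios scaling and 104 to 56 after quantile normalization within each tissue. The liver change was the larger in size at 188 of the 197 genes. Among the 197 the median size of change was 0.57 in liver and 0.09 in hippocampus. Chow and high-fat values did not overlap in liver at 186 of them and in hippocampus at 23. As the 197 were chosen on these same values, this only describes them; over all genes the shares were 13.8% and 2.44%.

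Each tissue on its own gave the same picture. In liver 381 genes (3.85%) passed, 85 higher on chow (0.858%) and 296 lower (2.99%). In hippocampus 0 genes passed limma's adjusted p of 0.05, the smallest adjusted p being 0.331, while 299 (3.02%) had an unadjusted p below 0.05, 181 higher on chow (1.83%) and 118 lower (1.19%). Over all genes the interquartile range of the changes was 0.27 log2 units in liver and 0.11 in hippocampus. The median standard error was nearly equal, 0.11 in liver and 0.10 in hippocampus. Liver and hippocampal changes were not related across genes: Pearson's r was -0.01 and Spearman's rho 0.01 over 9904 genes, which are not independent of each other. The 2 medians differed slightly, at -0.01 in liver and 0.04 in hippocampus, where 67.5% of genes were higher on chow. In liver 52.6% of genes were lower on chow. List counts below are to be read beside this share and beside the called differences over all genes (1.6% more negative in liver, 0.394% more positive).

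**Figure D1:**
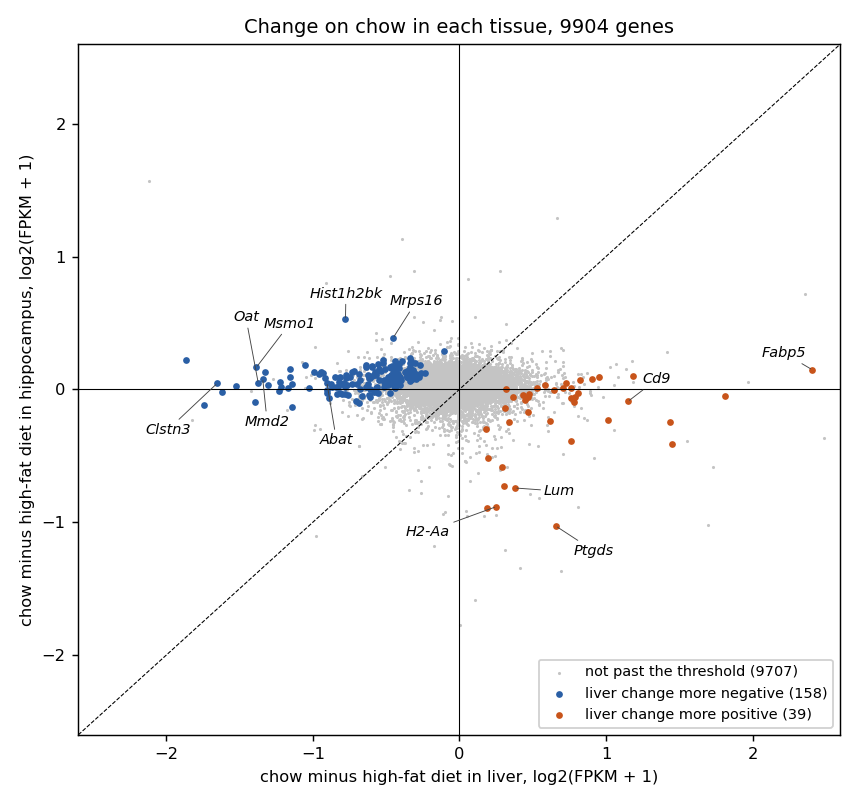
Each point is one of 9904 genes, with its chow minus high-fat change in liver on the horizontal axis and in hippocampus on the vertical axis, both on the log2(FPKM + 1) scale. The 197 genes that passed the test of the difference are coloured, 158 with the more negative and 39 with the more positive liver change; they spread along the liver axis, and 39 genes outside the axes, none of which passed, are not drawn.

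Enzymes of amino acid breakdown were lower on chow in liver at most members tested. Of 36 genes listed for the urea cycle and amino acid breakdown, 23 passed the filter in both tissues. At 7 of these the liver change was the more negative (Oat, Bckdhb, Gpt2, Gpt, Asl, Prodh and Ivd) and at 0 the more positive. Over all genes these shares were 1.6% and 0.394%. 22 of 23 had a negative liver change (95.7%, against 52.6% of all genes), and 16 of them passed in liver alone. The median change was -0.47 in liver and 0.00 in hippocampus, against -0.01 and 0.04 over all genes. The count of 7 was 5 to 9 when each library was left out in turn 4 after quantile normalization, 14 with a pseudocount of 5 and 1 with equal indices treated as 1 animal.

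Oat, ornithine aminotransferase, links ornithine to proline and glutamate (chr7:132557478-132576398, GRCm38, minus strand). Its FPKM was 272, 312, 353 and 374 in HFD livers and 79.9, 126, 132 and 183 in CC livers. In hippocampus it was 16.8, 16.9, 17.0 and 18.4 on high-fat diet and 15.8, 18.3, 18.3 and 19.2 on chow. Every CC liver lay below every HFD liver, while the hippocampal groups overlapped. Oat was thus 2.52-fold lower on chow in liver, and the difference between tissues was -1.42 ± 0.24 (SE; limma adjusted p = 0.00694). The call held without each of the 16 libraries.

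Gpt and Gpt2 encode the cytosolic and the mitochondrial alanine aminotransferase. Gpt measured 159, 177, 186 and 187 FPKM in HFD livers and 96.3, 99.1, 108 and 112 in CC livers, with hippocampal values of 3.64 to 6.06 over both diets. Gpt2 measured 122 to 162 and 84.1 to 92.6 FPKM in the same livers. Both fell in liver with no overlap, and the difference between tissues was -0.80 ± 0.16 for Gpt and -0.81 ± 0.14 for Gpt2 (limma adjusted p = 0.0158 and 0.00918). Gpt lost the call after quantile normalization and Gpt2 in the fit of all 29 libraries. Bckdhb, a subunit of the branched-chain keto acid dehydrogenase, measured 71.4 to 80.1 FPKM in HFD and 53.1 to 56.1 in CC livers. Its difference between tissues was -0.58 ± 0.10 (adjusted p = 0.00694). Asl (argininosuccinate lyase, of the urea cycle), Prodh (proline dehydrogenase) and Ivd (isovaleryl-CoA dehydrogenase, of leucine breakdown) differed by -0.73, -0.77 and -0.45. Glud1, glutamate dehydrogenase, stood apart with a liver change of 0.02.

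Abat, the GABA transaminase, which in brain ends GABA signalling and in both tissues feeds carbon toward succinate, showed one of the tightest separations. Its FPKM was 128, 129, 138 and 139 in HFD livers and 59.2, 72.9, 75.0 and 78.0 in CC livers. The hippocampal values were 31.5, 33.2, 33.9 and 37.3 on high-fat diet and 33.0, 35.0, 35.9 and 36.9 on chow. Liver values separated completely and hippocampal values interleaved. The liver mean was 1.87-fold lower on chow, and the difference between tissues was -0.96 ± 0.12 (limma adjusted p = 0.000767), a call kept without each library.

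Abat belongs to a list of 16 tested genes that make, use or sense succinate, the metabolite named in the title of the study. 2 of them passed, Abat and Sdhc, both with the more negative liver change, and 14 did not. Sdhc, a membrane anchor of succinate dehydrogenase, measured 166 to 181 FPKM in HFD and 145 to 149 in CC livers, against 39.7 to 44.6 and 43.6 to 48.5 in hippocampus. The difference was -0.39 ± 0.08 (limma adjusted p = 0.0274), and the call was lost without any of 6 libraries and under both other scalings. The other subunits did not pass: Sdha differed by -0.25 (adjusted p = 0.246), Sdhb by -0.32 (adjusted p = 0.0582) and Sdhd by -0.12 (adjusted p = 0.626). Sucnr1, the cell-surface receptor for succinate, was listed at 0 in all 8 hippocampal libraries. It measured 30.6 to 48.7 FPKM in HFD and 23.7 to 32.7 in CC livers, and it was not part of the test.

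Of 25 citric acid cycle genes, 3 had the more negative liver change (Dlst, Sdhc and Pcx) and 0 the more positive, with median changes of -0.16 in liver and 0.05 in hippocampus. Dlst, a core subunit of the 2-oxoglutarate dehydrogenase complex, measured 78.2 to 82.8 FPKM in HFD and 60.02 to 67.6 in CC livers. Its difference was -0.45 ± 0.08 (limma adjusted p = 0.00977). Pcx, pyruvate carboxylase, which refills the cycle and starts gluconeogenesis, differed by -0.47 ± 0.12 (adjusted p = 0.0474). Pcx lost the call without any of 14 libraries and under both other scalings. In the respiratory chain list 57 of 69 genes had a negative liver change (82.6%, against 52.6% of all genes), and 3 passed in liver alone. The difference between tissues passed at 1 of the 69, with the more negative liver change, which 1.6% of all genes did. That gene was Ndufb3, an accessory subunit of complex I (-0.46 ± 0.11). Its call was lost under both other scalings and without any of 11 libraries. The median change of the 69 was -0.10 in liver and 0.02 in hippocampus. Among 18 genes of mitochondrial biogenesis and dynamics 1 passed (over all genes 1.99% did), Mfn2, which fuses outer mitochondrial membranes. Mfn2 measured 32.9 to 37.0 FPKM in HFD and 24.3 to 26.2 in CC livers, and 31.9 to 39.5 over all hippocampi, a difference of -0.56 ± 0.10 (adjusted p = 0.00694) that held without each library.

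**Figure D2:**
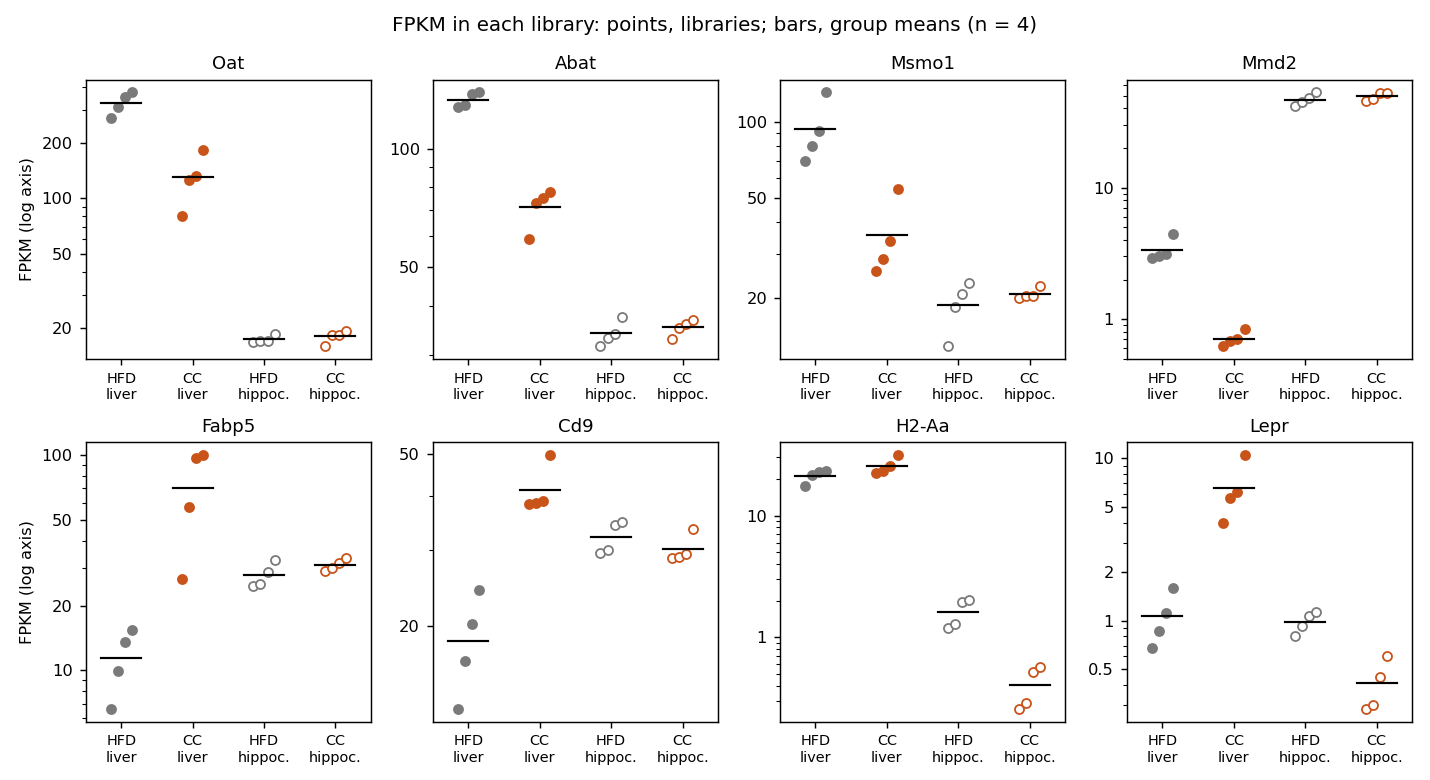
FPKM of 8 genes in each of the 16 libraries on a log axis, with HFD in grey and CC in orange, liver filled and hippocampus open, and bars at the group means (n = 4). Oat, Abat, Msmo1 and Mmd2 were lower in every CC than in every HFD liver and Fabp5, Cd9 and Lepr higher, whereas H2-Aa and Lepr were lower in every CC than in every HFD hippocampus.

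Methionine, choline and one-carbon enzymes gave 3 of 14 with the more negative liver change and 0 with the more positive. Sardh, sarcosine dehydrogenase, measured 315 to 365 FPKM in HFD and 184 to 228 in CC livers, with 1.31 to 1.73 over all hippocampi. Shmt2, the mitochondrial serine hydroxymethyltransferase, measured 156 to 171 and 109 to 122 FPKM in liver. Aldh1l1, which oxidises formyl-tetrahydrofolate and marks astrocytes in brain, measured 505 to 578 and 326 to 406 FPKM in liver and 8.85 to 10.8 in hippocampus. The differences were -0.68 ± 0.12 for Sardh, -0.58 ± 0.10 for Shmt2 and -0.53 ± 0.12 for Aldh1l1 (limma adjusted p = 0.00694, 0.00694 and 0.0274). Sardh and Shmt2 kept the call without each library, and Aldh1l1 lost it without CC-H library 3, CC-L library 0 or HFD-H library 3, with its difference at -0.58 to -0.48 over all 16 omissions, and under both other scalings.

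Genes of cholesterol synthesis and uptake shared one direction in liver. All 24 tested genes of the list had a negative liver change, from -1.39 (Msmo1) to -0.06 (Pmvk), and 6 passed in liver. Over all genes 52.6% had a negative liver change. In hippocampus their changes ran from -0.11 (Ebp) to 0.20 (Dhcr7), and 7 of 24 were negative. The medians were -0.54 in liver and 0.03 in hippocampus. At 4 genes, among them Msmo1, Hmgcs1 and Srebf2, the difference between tissues passed, and 20 did not. That count was 1 to 8 when each library was left out, 2 under either other scaling, and 0 with the choroid plexus level of the hippocampal libraries as a term, an alternative chosen after seeing the data.

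Msmo1, a sterol methyl oxidase, measured 70.1, 80.2, 91.5 and 131 FPKM in HFD livers and 25.6, 28.5, 33.8 and 54.1 in CC livers. In hippocampus it measured 12.9, 18.4, 20.8 and 23.0 on high-fat diet and 20.0, 20.3, 20.3 and 22.3 on chow. Liver groups were apart, and the hippocampal CC values lay inside the HFD range. The difference was -1.55 ± 0.31 (limma adjusted p = 0.0158), kept without each library but not with the choroid plexus term. Hmgcs1, which makes HMG-CoA in the cytosol, measured 173 to 273 FPKM in HFD and 75.3 to 150 in CC livers, against 38.2 to 53.2 and 42.1 to 52.2 in hippocampus. Its difference was -1.25 ± 0.27 (adjusted p = 0.0268), lost without any of 7 libraries. Srebf2, which encodes the SREBP-2 regulator itself, measured 22.7 to 27.1 FPKM in HFD and 16.3 to 20.4 in CC livers and differed by -0.45 ± 0.11 (adjusted p = 0.0383). That call was lost under either other scaling and without any of 13 libraries.

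The promoter of Hmgcs1 is printed because SREBP-2 acts on genes of this list through the sterol regulatory element. The 250 bases before its annotated start (RefSeq, GRCm38.p6, chr13:119690101-119690350, plus strand) hold the motif TCACNCCAC, in capitals, beginning 137 bases before the start.
Hmgcs1: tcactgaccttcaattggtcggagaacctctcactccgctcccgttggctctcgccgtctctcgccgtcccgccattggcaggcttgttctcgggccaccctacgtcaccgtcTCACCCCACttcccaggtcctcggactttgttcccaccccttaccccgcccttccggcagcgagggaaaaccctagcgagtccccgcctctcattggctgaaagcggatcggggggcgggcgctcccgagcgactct
Searched on both strands, the motif occurred in 346 of 32851 such windows (1.05%), and of the 17 list members with a window Hmgcs1 alone held it. No match in the other windows says only that these letters are not there.

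Fat oxidation and PPAR alpha targets showed the same direction less completely. At 2 of 34 genes the liver change was the more negative (against 1.6% of all genes), Hadh being one, and at 0 the more positive. In liver 31 of 34 were negative (91.2%, against 52.6% of all genes), 6 of those past the threshold in liver alone. Hadh, a mitochondrial beta-oxidation enzyme, measured 216, 269, 271 and 272 FPKM in HFD livers and 135, 153, 157 and 185 in CC livers, and 6.47 to 7.86 over all hippocampi. Every CC liver lay below every HFD liver. The difference was -0.62 ± 0.13 (limma adjusted p = 0.0259). The call was lost without any of 6 libraries, and the list's count ran from 0 to 5. Hadh also lost the call under both other scalings. Pdk4, which spares glucose when fat is burnt, had the highest liver change of the list, 0.83, with adjusted p = 0.175 in liver.

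Fat storage and fat making gave no difference that passed. Among 19 genes of lipid droplets and triglyceride turnover 0 passed, the nearest being Abhd5, a coactivator of triglyceride lipase. Abhd5 measured 8.85 to 9.65 FPKM in HFD and 11.4 to 15.9 in CC livers, a difference of 0.60 ± 0.16 (limma adjusted p = 0.0625). Among 17 genes of fatty acid synthesis 0 passed, the nearest being Hacd3, an elongation enzyme, at -0.43 (adjusted p = 0.126). Markers of fat cells, summed over 10 genes, were 2144 to 2784 FPKM in HFD livers and 980 to 1681 in CC livers, and 10.4 to 15.2 in hippocampus. 4 of those 10 were at 0 in every HFD liver, 3 in every CC liver. The 2 that were tested went opposite ways in liver, Cidea at -1.42 and Lpl at 0.49. How far single abundant genes carry the sum is not reported here. The part of fat cells in the liver changes was not tested.

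**Figure D3:**
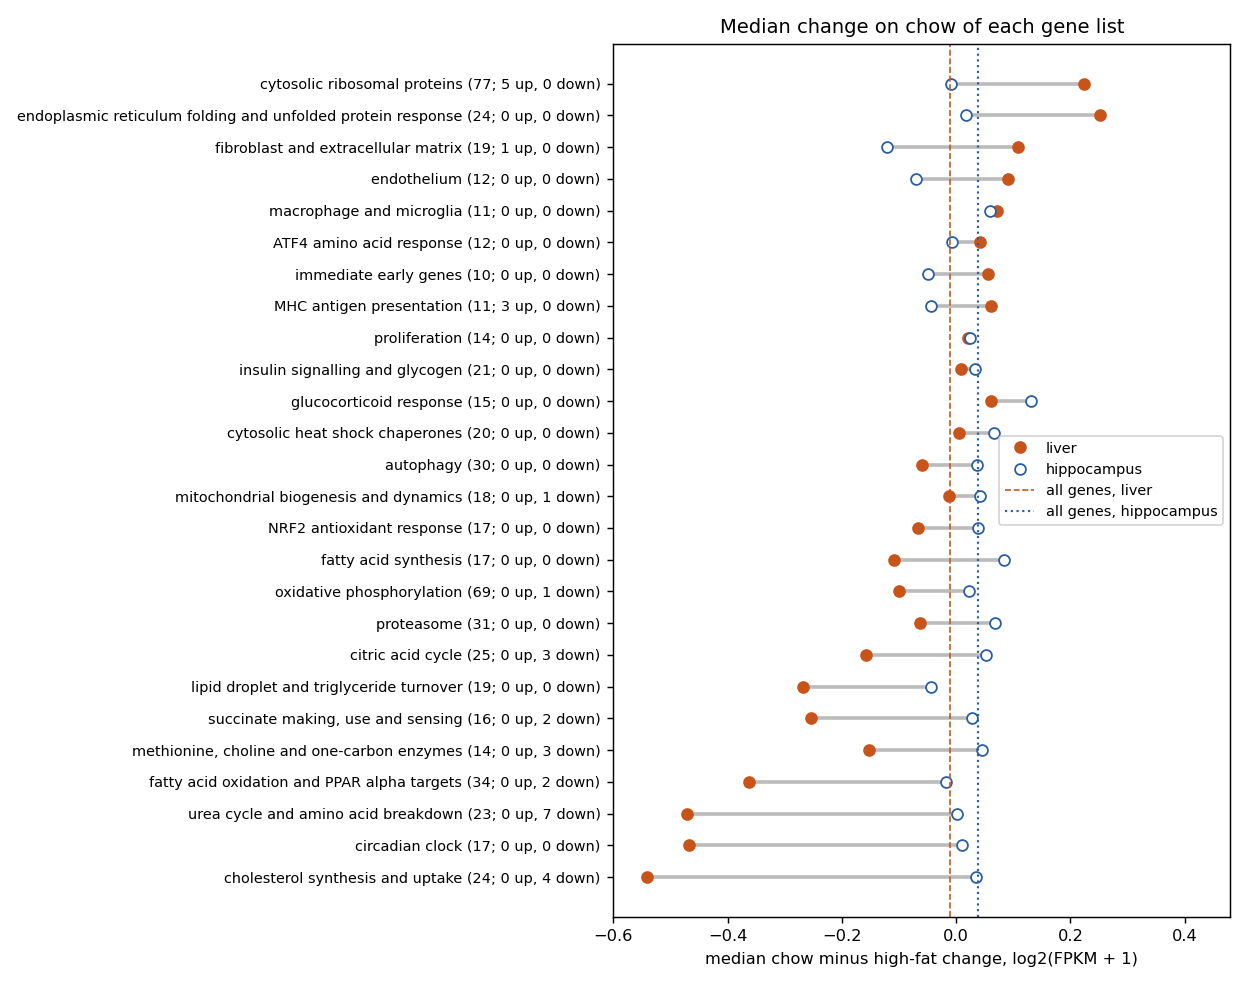
Median chow minus high-fat change of each gene list with at least 10 tested genes, in liver (filled) and hippocampus (open), on the log2(FPKM + 1) scale. In brackets stand the number of genes tested and how many passed with the more positive (up) or more negative (down) liver change; the hippocampal medians range from -0.12 to 0.13 and the liver medians from -0.54 for cholesterol synthesis to 0.25 for endoplasmic reticulum folding.

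Of the 8 most negative differences named by rank, Msmo1 and Oat are given above and the other 6 had liver values of at most 15.4 FPKM. Clstn3, a calsyntenin known as a synaptic adhesion protein, measured 4.21, 7.17, 7.73 and 8.69 FPKM in HFD livers and 1.13, 1.47, 1.55 and 1.73 in CC livers. The hippocampi measured 59.6 to 66.6 and 61.7 to 69.6. Its liver mean was 4.72-fold lower on chow and the difference between tissues was -1.70 ± 0.20 (limma adjusted p = 0.000698). Mmd2, a membrane protein of the progestin and adipoQ receptor family, measured 2.94, 3.02, 3.11 and 4.42 FPKM in HFD livers and 0.621, 0.680, 0.701 and 0.843 in CC livers. In hippocampus it measured 41.4 to 52.9 and 45.7 to 52.4. It had the smallest adjusted p named here, 0.000281, with a difference of -1.42 ± 0.14. Both calls held without each library.

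Sema5b, a semaphorin of axon guidance, measured 2.28 to 5.44 FPKM in HFD and 0.230 to 0.502 in CC livers, and 3.25 to 4.74 over all hippocampi. Lrtm1, a leucine-rich repeat membrane protein, measured 1.58 to 4.72 and 0.113 to 0.486 in liver and 2.16 to 3.19 over all hippocampi. Olig1, a transcription factor of oligodendrocytes, measured 6.11 to 15.4 and 2.76 to 3.76 in liver and 36.0 to 55.1 over all hippocampi. The differences were -1.62 ± 0.25, -1.60 ± 0.27 and -1.55 ± 0.29 (limma adjusted p = 0.00554, 0.00694 and 0.0118), each kept without each library. Summed over 10 oligodendrocyte markers, livers held 16.5 to 25.3 FPKM on high-fat diet and 12.6 to 17.3 on chow, with 2 of the 10 at 0 in every HFD and 4 in every CC liver. Olig1 is itself 1 of the 10, so the lower sum on chow contains its own change. Cnp, the other marker of that list that was tested, had a liver change of 0.36. The part of such cells in the Olig1 change was not tested. Adora1, the A1 adenosine receptor, differed by -1.45 ± 0.36 (adjusted p = 0.0471), but its livers overlapped (4.08 to 13.7 and 2.49 to 5.36 FPKM) and the call was lost without any of 14 libraries and under both other scalings. Since 1 is added before the log is taken, the fold change of genes at such levels is larger than the log2 value.

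Among the 39 genes with the more positive liver change, Fabp5 led. Fabp5, a fatty acid binding protein of skin, fat and macrophages, measured 6.62, 9.94, 13.6 and 15.4 FPKM in HFD livers and 26.6, 57.2, 96.4 and 99.9 in CC livers. In hippocampus it measured 24.8, 25.2, 28.8 and 32.5 on high-fat diet and 28.8, 29.8, 31.5 and 33.1 on chow. Chow livers were all higher, with a wide spread, and hippocampal groups overlapped. The difference was 2.26 ± 0.44 (limma adjusted p = 0.0158), kept without each library. Processed copies of Fabp5 may share its reads.

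Cd9, a tetraspanin of cell surfaces and vesicles, measured 12.8, 16.6, 20.2 and 24.2 FPKM in HFD livers and 38.3, 38.5, 38.9 and 49.7 in CC livers. In hippocampus it measured 29.5 to 34.7 and 28.7 to 33.5. Cd9 rose in liver by 1.15 (limma adjusted p = 0.0127) and its hippocampal change was -0.09. The difference between tissues was 1.24 ± 0.20 (adjusted p = 0.00554). Tuba8, an alpha-tubulin, measured 0.150 to 0.495 FPKM in HFD and 1.43 to 2.64 in CC livers, and 2.25 to 4.14 over all hippocampi. Wnk4, a kinase that controls salt transport in kidney, measured 0.625 to 1.25 and 1.92 to 4.67 in liver and 1.22 to 2.32 over all hippocampi. Their differences were 1.09 ± 0.22 and 1.24 ± 0.25 (adjusted p = 0.0177 and 0.0187), all 3 kept without each library. Tuba8 lost the call with a pseudocount of 5 and in the fit of all 29 libraries. Cd9 and Wnk4 lost it with equal indices treated as 1 animal. Cdc42ep5, an effector of the Cdc42 GTPase, differed by 1.86 ± 0.46 (adjusted p = 0.0491) and lost the call without any of 12 libraries and under both other scalings.

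Lepr, the leptin receptor, fell under the filter with a hippocampal mean of 0.695 FPKM and is described for its known place in body weight control. It measured 0.675, 0.867, 1.11 and 1.59 FPKM in HFD livers and 3.97, 5.70, 6.21 and 10.5 in CC livers. In hippocampus it measured 0.799, 0.925, 1.07 and 1.12 on high-fat diet and 0.285, 0.303, 0.447 and 0.608 on chow. The groups were apart in both tissues, in opposite directions. In a fit with no filter (16893 genes) the difference was 2.32 ± 0.27 (limma adjusted p = 0.000842), with 1.83 in liver (adjusted p = 0.0176) and -0.49 in hippocampus (adjusted p = 0.523). The choroid plexus, whose markers are described below, is a known site of Lepr in brain, and its part in this change was not tested. Leprot, which shares its first exons with Lepr, differed by 0.07 (adjusted p = 0.868).

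The genes of the cytosolic ribosome had positive liver changes throughout the list, and 9 passed in liver alone. All 77 of the list were tested, and 0 had a negative liver change. At 5 the difference passed (Rpl36a, Rps16, Rps12 and Rpl12 among them), all more positive. The median change was 0.22 in liver and -0.01 in hippocampus. Rpl36a measured 178, 206, 209 and 215 FPKM in HFD livers and 264, 273, 280 and 298 in CC livers, and in hippocampus 125, 128, 129 and 143 on high-fat diet and 106, 115, 122 and 125 on chow. Neither pair of groups overlapped, with chow higher in liver and lower in hippocampus. Its difference was 0.63 ± 0.11 (limma adjusted p = 0.00694), and Rps16, Rps12 and Rpl12 differed by 0.45, 0.51 and 0.55. The count of 5 was 2 to 7 over the omissions and 9 after median-of-ratios scaling. Ribosomal protein genes have many processed copies, so their levels are uncertain.

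The endoplasmic reticulum folding list went the same way with no gene past the threshold. Of 24 genes, 23 had a positive liver change, the median was 0.25 in liver and 0.02 in hippocampus, and 1 passed in liver (Ero1lb, an oxidase for disulfide bonds, 0.89, limma adjusted p = 0.0482). Ern1, a sensor of unfolded protein, differed by 0.62 ± 0.17 (adjusted p = 0.069). Eif2ak3, another such sensor but outside the list, did pass, at 0.83 ± 0.16 (limma adjusted p = 0.0158). Its change was 0.76 in liver and -0.07 in hippocampus, and it was named after its values were seen. Clock genes were mixed: 10 of 17 had a negative liver change (58.8%, near the 52.6% of all genes). Their median was -0.47 in liver and 0.01 in hippocampus, and 0 of 17 passed the test of the difference. Npas2, a partner of the clock activator, had the highest liver change, 0.71. Cry2, a clock repressor, was nearest at -0.68 ± 0.17 (adjusted p = 0.0561). Dbp, a clock output gene, had the most negative liver change of the list, -1.82 (adjusted p = 0.318). The time of day at which tissue was taken is not given in the sources used here.

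At 9 of the 197 genes the hippocampal change was the larger: Ptgds, H2-Aa, H2-Ab1, Cd74, Lum, Gpr182, Myo5b, Tmem164 and Tmem170. The first 6 and the last 2 had the more positive liver change, with lower hippocampal means on chow, and Myo5b the opposite. The last 3 were named after their values were seen. In hippocampus alone 0 of the 9 passed.

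Ptgds, the prostaglandin D synthase that the meninges and choroid plexus secrete, measured 328, 436, 499 and 558 FPKM in HFD hippocampi and 196, 199, 224 and 260 in CC hippocampi. In liver it measured 0.300, 0.399, 1.34 and 3.08 on high-fat diet and 1.44, 1.69, 2.56 and 3.62 on chow. The hippocampal groups were apart and the livers overlapped. The hippocampal change was -1.03 ± 0.16 (limma, unadjusted p = 5.2e-05, adjusted p = 0.331), and the difference between tissues 1.69 ± 0.41 (adjusted p = 0.0471). The call was lost without any of 13 libraries, with its difference at 1.47 to 2.02, and with the choroid plexus term (adjusted p = 0.0892).

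MHC class II genes, which present antigen on specialised immune cells, behaved alike. H2-Aa measured 1.2, 1.28, 1.95 and 2.00 FPKM in HFD hippocampi and 0.257, 0.288, 0.519 and 0.570 in CC hippocampi. In liver it measured 17.4, 21.4, 22.9 and 23.3 on high-fat diet and 22.2, 23.0, 25.6 and 31.4 on chow. The hippocampal groups were apart at low levels, and the livers overlapped. The difference was 1.13 ± 0.19 (limma adjusted p = 0.00694), kept without each library and with the choroid plexus term (adjusted p = 0.0194), but not in the fit of all 29 libraries. H2-Aa and H2-Ab1 met the filter through the HFD hippocampi, with means of 1.61 and 1.53 FPKM there against 0.409 and 0.493 on chow. Neither was tested when the filter used all libraries of a tissue, and the antigen presentation list then had 9 tested genes and 1 call. H2-Ab1, the partner chain, measured 0.810 to 2.37 and 0.292 to 0.664 in hippocampus, a difference of 1.03 ± 0.22 (adjusted p = 0.0245). Its call was lost without CC-H library 0 or 3 or CC-L library 2, at a difference of 0.88 to 1.18 over all omissions. Cd74, the invariant chain that escorts class II molecules, measured 2.29 to 3.94 and 0.770 to 2.6, with CC-H library 2 the high one, a difference of 1.08 ± 0.26 (adjusted p = 0.0458) lost without any of 13 libraries and under both other scalings. With the choroid plexus term both missed the threshold (adjusted p = 0.0684 for each). 3 of 11 antigen presentation genes passed in all, but 0 of the 11 in the fit of all 29 libraries. The class I genes H2-D1, H2-K1 and B2m differed by 0.11, 0.05 and -0.13 without passing. Genes of this region are close copies of each other, so their levels are uncertain.

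The H2-Aa promoter is shown because class II genes share upstream boxes read by their common activators. The 250 bases before the start (RefSeq, GRCm38.p6, chr17:34287824-34288073, minus strand) hold the Y box motif CTGATTGG, in capitals, beginning 51 bases before the start.
H2-Aa: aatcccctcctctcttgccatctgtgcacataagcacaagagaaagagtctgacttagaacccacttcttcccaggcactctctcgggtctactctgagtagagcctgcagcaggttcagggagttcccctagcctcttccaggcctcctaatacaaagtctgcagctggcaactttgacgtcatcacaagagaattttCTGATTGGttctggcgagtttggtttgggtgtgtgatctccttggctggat
Searched on both strands, the motif occurred in 1258 of 32851 windows (3.83%), and in 2 of the 8 matched list members, H2-Aa and H2-D1.

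Lum, lumican, a matrix proteoglycan, measured 1.59 to 3.13 FPKM in HFD and 0.601 to 1.38 in CC hippocampi, and 3.22 to 4.37 and 4.88 to 5.99 in liver. Both tissues separated, in opposite directions, and the difference was 1.12 ± 0.22 (limma adjusted p = 0.0158; 0.0354 with the choroid plexus term). Gpr182, a receptor of endothelial cells, measured 1.49 to 2.24 and 0.679 to 1.09 in hippocampus and 19.1 to 24.4 and 23.6 to 26.9 in liver. Its difference was 0.88 ± 0.15 (adjusted p = 0.00694; 0.00694 with the term). Both were kept without each library, but Lum was not in the fit of all 29 libraries. Among 19 tested fibroblast and matrix genes 1 passed, Lum, and in hippocampus alone 6 were lower at an unadjusted p below 0.05 (Col1a1, Col1a2, Lum, Dcn, Fbn1 and Vim) and 1 was higher (Col4a2). Of the rest of the 9, Tmem170 differed by 0.71, Tmem164 by 0.47 and Myo5b by -0.40 (adjusted p = 0.0426, 0.0352 and 0.0469), and all were lost without any of 11 to 13 libraries.

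Of the tissues that border the hippocampus, meningeal markers were lower on chow in sum, while choroid plexus markers did not follow diet in every library. The 14 meningeal markers summed to 397, 497, 578 and 617 FPKM in HFD and 229, 231, 265 and 324 in CC hippocampi, with none of the 14 at 0 in all hippocampi of a group. Without Ptgds the other 13 summed to 59.6 to 78.6 and 32.2 to 64.8, so the groups overlapped through CC-H library 2. All 6 meningeal genes that were tested had a negative hippocampal change, and 5 had an unadjusted p below 0.05. The 14 choroid plexus markers split the libraries: they summed to 1483, 1622 and 2048 FPKM in 3 HFD hippocampi and 78.9 in library 1, and to 55.7, 55.8 and 142 in 3 CC hippocampi and 1900 in library 2. Without Ttr they summed to 45.4 to 304 and 39.1 to 285. All 5 choroid plexus genes that were tested had a negative hippocampal change, and 0 had an unadjusted limma p below 0.05. HFD-H library 1, low in these markers, had the highest Ptgds, at 558 FPKM. With the choroid plexus level as a term, 114 genes passed, 100 of them among the 197 and 0 of the 197 reversed. Beyond these values, the part of bordering tissue in the hippocampal changes was not tested.

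**Figure D4:**
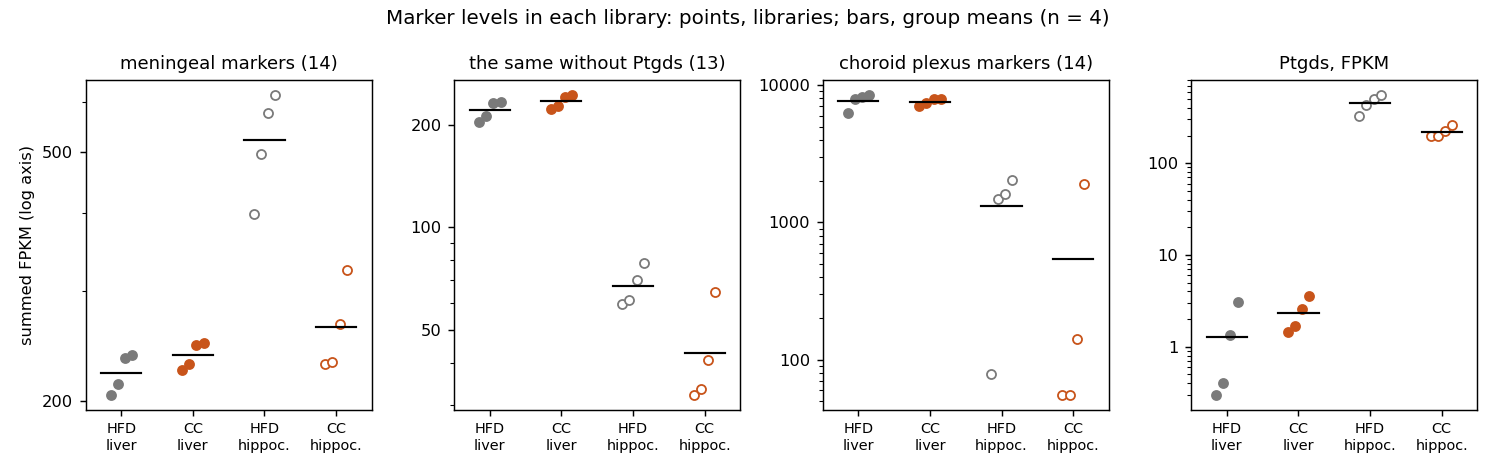
Summed FPKM of the meningeal markers with and without Ptgds, of the choroid plexus markers, and of Ptgds alone, in each of the 16 libraries on log axes, with bars at the group means (n = 4). Meningeal sums were 397 to 617 in HFD and 229 to 324 in CC hippocampi, and the choroid plexus sums were high in 3 HFD hippocampi and 1 CC hippocampus.

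Genes that moved the same way in both tissues were few. Of all 9904 genes 49.9% had the same sign, and of the 381 that passed in liver 160 did (42.0%). An unadjusted p below 0.05 in each tissue with the same sign was met by 26 genes (0.263%), 9 higher and 17 lower on chow, and with opposite signs by 39 (0.394%). Of the 299 hippocampal genes at that p, 21.7% also met it in liver, against 21.8% of all genes. The mean of both changes passed at 95 genes (0.959%), 22 higher and 73 lower, and 65 of these had the same sign. 61 of the 95 also passed the test of the difference, since a large change in liver alone moves the mean.

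Among the shared genes that were higher on chow were Rbm10, a splicing regulator, and Ube2s, a ubiquitin-conjugating enzyme of cell division. As 0 genes passed in hippocampus alone, none of the shared genes did, and a mean that passed can rest mostly on liver. Rbm10 measured 9.14, 10.8, 11.6 and 12 FPKM in HFD and 12.6, 13.4, 13.9 and 14.9 in CC livers, and 11.1, 11.4, 11.9 and 12.1 in HFD and 13.3, 13.4, 13.5 and 14.1 in CC hippocampi. Both tissues separated, with changes of 0.31 in liver and 0.21 in hippocampus, and the mean change was 0.26 (limma adjusted p = 0.0304). Ube2s also separated in both, at 0.53 and 0.19 (mean 0.36, adjusted p = 0.0252). Kctd6, a ubiquitin ligase adaptor, changed by 0.46 and 0.20 and its mean passed too (adjusted p = 0.0207). Polr1d, a subunit of RNA polymerases I and III, at 0.18 and 0.17, and Mthfd2, a mitochondrial folate enzyme, at 0.62 and 0.29, did not pass as a mean (adjusted p = 0.0791 and 0.149).

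Among those lower on chow, Hsd3b7, an enzyme of bile acid synthesis, measured 297, 321, 355 and 366 FPKM in HFD and 212, 230, 266 and 274 in CC livers. The hippocampi measured 3.08, 3.39, 3.79 and 4.11 on high-fat diet and 2.58, 2.72, 2.73 and 3.03 on chow. Colec12, a scavenger receptor, measured 18 to 21.5 and 14 to 17.3 in liver and 1.74 to 2.31 and 0.947 to 1.49 in hippocampus. Neither gene's groups overlapped in either tissue. The mean change was -0.37 for Hsd3b7 and -0.35 for Colec12 (limma adjusted p = 0.012 and 0.0228). Cmbl, a hydrolase, changed by -0.98 and -0.27, and Igfbp5, which binds insulin-like growth factors, by -0.76 and -0.20, both passing as a mean (adjusted p = 0.00375 and 0.035). Aox1, an aldehyde oxidase, changed by -0.26 in each tissue and its mean did not pass (adjusted p = 0.0714). Of all 9904 genes, 12 had groups apart in both tissues with the same sign and 22 with opposite signs. Groups were apart at 13.8% of all genes in liver and at 2.44% in hippocampus, so some would be apart in both by coincidence. Whether these counts exceed that was not tested.

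Mrps16, a protein of the small mitochondrial ribosomal subunit, was among the genes that went opposite ways. It measured 42.6, 45.4, 45.5 and 52.9 FPKM in HFD and 29.1, 30.9, 37.3 and 38.3 in CC livers, and 11.8, 12.4, 13 and 15 in HFD and 16.8, 16.9, 17.2 and 18.3 in CC hippocampi. Neither pair overlapped: chow was lower in liver and higher in hippocampus. The difference was -0.84 ± 0.14 (limma adjusted p = 0.00554), kept without each library and with the choroid plexus term (adjusted p = 0.0169). Ifitm2, an interferon-inducible membrane protein, measured 213 to 269 and 293 to 308 in liver and 5.50 to 9.77 and 3.78 to 6.65 in hippocampus, a difference of 0.91 that did not pass (adjusted p = 0.0573). Hist1h2bk, a histone H2B gene with many near copies, differed by -1.30 ± 0.32 (adjusted p = 0.0475), lost without any of 14 libraries. Its hippocampal values did not overlap, at 1.2 to 1.57 and 2.13 to 2.81.

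The remaining lists held no gene whose difference passed. These were the proteasome (31 genes), autophagy (30), insulin signalling and glycogen (21), cytosolic heat shock chaperones (20), NRF2 antioxidant response (17), glucocorticoid response (15), proliferation (14), ATF4 amino acid response (12), endothelium (12), macrophage and microglia (11), immediate early genes (10), interferon response (9) and leptin signalling (5). Among those nearest to the threshold were Atg7, of autophagosome formation, at -0.45 (limma adjusted p = 0.0546), Srxn1, sulfiredoxin, at -0.43 (adjusted p = 0.0735) and Irs2, an adaptor of the insulin receptor, at 0.99 (adjusted p = 0.0961). Irs2 measured 8.28 to 17.0 FPKM in HFD and 17.2 to 36.2 in CC livers, and 21.3 to 28.2 over all hippocampi. Of the small cell type lists, oligodendrocytes (2 genes) gave Olig1. Neurons (4), astrocytes (5), choroid plexus (5), hepatocytes (2), adipocytes (2) and blood (2) gave 0, and 0 lymphocyte markers passed the filter.

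In the mice that fasted every other day the same contrast gave 36 genes (0.363%) past limma's adjusted p of 0.05, with 1144 at an unadjusted p below 0.05. Of the 197 genes, 94 kept their sign there (47.7%, against 49.0% of all genes), 16 did so with an unadjusted p below 0.05, 14 had the opposite sign at that p, and 3 passed. Mmd2 differed by -1.21 under fasting (limma adjusted p = 0.263) and Adora1 by -0.86 (limma adjusted p = 0.309). Oat differed by -0.45, Abat by 0.12, Msmo1 by -0.20 and Fabp5 by 0.12 (limma adjusted p = 0.554, 0.816, 0.911 and 0.942). H2-Aa was at -1.05 (limma adjusted p = 0.558), against 1.13 without fasting. The HFD liver group has 2 fasted libraries. Without library 0 the count was 963 and without library 1 it was 71, from fits in which the lone library is assumed to vary like those of the other groups. Whether fasting altered the difference between tissues was not tested.

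**Figure D5:**
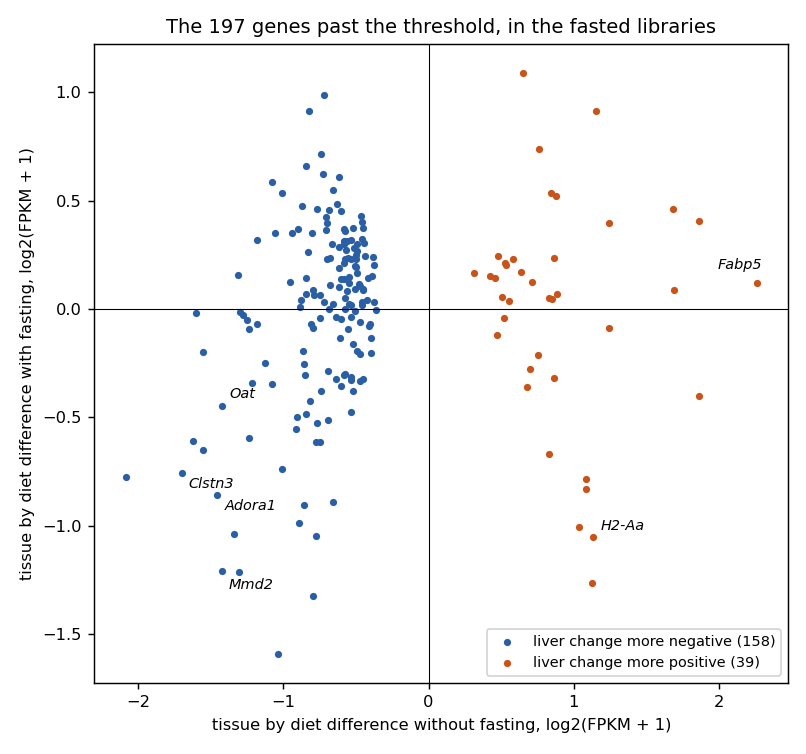
Difference between tissues (liver change minus hippocampal change, log2(FPKM + 1)) without fasting on the horizontal axis and with fasting on the vertical axis, for the 197 genes that passed without fasting. The points lie on both sides of 0 on the vertical axis, with 94 of the 197 keeping their sign.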

How the data were processed

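RNA from liver and hippocampus was sequenced by the submitters. The build was GRCm38/mm10 per the submitters' processing notes, which list, with no order of steps, Bowtie2 (2.3.5.1), TopHat2 (2.1.1), FastQC (0.11.9) and Trimmomatic (0.39). Which program computed FPKM, with which annotation and scaling, and whether it counted by strand is not given in the sources used here. Values are the FPKM per gene as deposited by the authors in 1 table, which normalizes for library size and transcript length; low genes rest on few fragments. Columns were assigned to groups by name and carry an index that the sample labels do not tie to a mouse. The members and gene lists were chosen with earlier results of these data known.

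From these values, log2(FPKM + 1) was fitted with limma 3.58.1 in R 4.3.3 (eBayes with trend, Benjamini-Hochberg adjustment over 9904 genes). The difference between tissues and the mean change came from 1 fit of 16 libraries, and each tissue was also fitted alone. The labels state biological replicates. Genes named are the 8 highest and 8 lowest differences past the threshold, up to 4 per list past it (or the 2 nearest it, in lists of at least 10 with none), the 5 shared genes in each direction and the 5 opposite genes of smallest p, the 3 hippocampal genes of smallest p, and Sucnr1, Sdha, Sdhb, Sdhc, Sdhd, Lepr and Leprot. Predicted genes and genes under 300 nt were left out of names by rank. Other genes are named from list counts or list extremes, or after their values were seen. Alternatives were other pseudocounts, filters, scalings, variance models, blocks, all 29 libraries, and each library left out. The values of some list members are not reported here. Scripts were tested on simulated data. Figures used Python 3.11.15 and matplotlib 3.10.9. Coordinates are GENCODE M21 (GRCm38), matched by symbol for 9547 of the 9904 genes.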

Additional observations from a re-analysis of the deposited data

Results flagged for a closer look

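The test of the difference between tissues itself found 197 genes whose chow change was not the same in liver and hippocampus. Lepr was not among the genes tested there. In the separate fit with no filter on low values it passed, at 2.32 on the log2 scale. That fit called 239 genes, 163 of them shared with the 197.

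Single libraries far from the other 3 of their group (Dixon's test, 95% level) were found in 18 of 238 groups examined over 60 genes, or 7.56%, where chance marks about 1 in 20 groups (5%). In HFD liver library 1, Hadh was 216 FPKM against 269 to 272 and Aldh1l1 578 against 505 to 510. In HFD liver library 2, Bckdhb was 71.4 against 78.6 to 80.1 and Sdhc 166 against 179 to 181. In HFD liver library 3, Mmd2 was 4.42 against 2.94 to 3.11. Among CC livers, library 0 gave Cd9 at 49.7 against 38.3 to 38.9 and Lum at 5.99 against 4.88 to 5.03, library 1 gave Igfbp5 at 6.86 against 3.77 to 4.16, and library 3 gave Adora1 at 5.36 against 2.49 to 2.73 and Ifitm2 at 293 against 306 to 308. In HFD hippocampus library 1, Oat was 18.4 against 16.8 to 17.0, Mthfd2 1.81 against 2.21 to 2.27, and Sdhb 47.7 against 44.7 to 45.1. In HFD hippocampus library 3, Sema5b was 3.25 against 4.59 to 4.74. Among CC hippocampi, library 3 gave Cd9 at 33.5 against 28.7 to 29.3 and Igfbp5 at 36.9 against 29.9 to 30.9. Library 2 gave Cd74 at 2.6 against 0.770 to 1.03, and it is the CC hippocampus with the high choroid plexus sum. Library 1 gave Msmo1 at 22.3 against 20.0 to 20.3.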

How the results depend on the processing

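Of the 45 named genes that passed and were followed through the alternatives, 27 were tested in all 13 other than omissions and the choroid plexus term. 8 of these kept the call in all 13. The other 18 fell under a stricter filter, mostly the mean of at least 5 FPKM. All 45 kept their sign in the alternatives and omissions in which they were tested, and 20 lost the call without some library. No gene of the 197 reversed. The 197 became 123 with a mean of at least 5 FPKM, 54 with a replicate block that treats equal indices as 1 animal, 114 with the choroid plexus term, and 97 to 274 when each library was left out. It was 98, 97 and 100 without CC-H library 0, 1 or 3, 121 and 119 without CC-L library 0 or 2, 114 without HFD-H library 2 and 125 without HFD-L library 0. Liver calls (381) were 212 in the fit of all 29 libraries, 72 with the index as a replicate block and 96 to 462 over omissions. Hippocampal calls (0) were 2 in the fit of all 29 libraries and 0 to 1 over omissions. The mean change (95) gave 154 with a pseudocount of 5, 48 with the filter at 5, 163 with no filter, 38 with the replicate block of animals and 64 to 184 over omissions. Shared genes (26) were 9 with the filter at 5, 41 with the replicate block by index, 40 with the choroid plexus term and 14 to 55 over omissions. The fasted contrast (36) gave 15 with the filter at 5 and 13 to 963 over omissions, which were added after seeing the data, as was the choroid plexus term. Between tissues, r of deviations was -0.20 to 0.09 for libraries of equal index and -0.24 to 0.21 for other pairs, with 1 of 8 best matched to its own index. With no pair known to come from 1 mouse to compare, these values cannot show whether equal indices share a mouse. The labels do not pair them. Omission leaves fewer samples. Other causes were not tested. With 4 libraries a group, a gene that missed the threshold is not shown to be unchanged.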

Other observations

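3 gene families outside the lists were picked after their values were seen and are described without a test. Over all genes 52.6% had a negative liver change, and at 1.6% the difference passed with the more negative liver change. Of 12 tested aldehyde dehydrogenases, which oxidise aldehydes from fat, retinal and amino acids, 11 had a negative liver change and 4 passed the test of the difference (limma, adjusted p below 0.05), all with the more negative liver change. Besides Aldh1l1 these were Aldh1a1 at -1.28, Aldh3a2 at -1.12 and Aldh1b1 at -1.01. Of 15 tested peroxins, which build peroxisomes, all had a negative liver change, with medians of -0.28 in liver and 0.03 in hippocampus. The 2 that passed were Pex19 at -0.49 and Pex5 at -0.39, which bring proteins to the peroxisome membrane and into its interior.

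Of 46 tested small nucleolar RNAs, 2 passed with the more positive liver change, Snora81 at 1.86 and Snora23 at 1.68. Such RNAs lie inside the introns of other genes and carry no poly-A tail, so their levels in libraries made from poly-A RNA are uncertain.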
